A study of Mus musculus with 74 samples.

Results

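The comparison described here sets 2 RNA-seq libraries of mouse embryonic small intestine labelled as Cdx2 knockout with deletion at E13 against 2 labelled as Cdx2 knockout with deletion at E15. These 4 libraries were chosen by the deletion day in their titles, out of 74 samples in the series, of which 31 are RNA-seq libraries. Both groups carry the genotype Cdx2f/f; Villin-Cre on a B6;129 mixed background, in which the Villin promoter drives Cre recombinase in gut epithelium, and both received 5 mg of tamoxifen by oral gavage. The tissue was taken 3 days after the stated deletion day in each group, at E16 for deletion at E13 and at E18 for deletion at E15, so the age at deletion and the age at harvest moved together and cannot be told apart. The isolation also differed. The E16 small intestine was digested with trypsin at 37°C and sorted by flow cytometry for the epithelial surface protein Epcam, whereas at E18 villi were released in EDTA at 4°C and dissociated with TrypLE at 37°C, with no sort stated. The untreated wild types used beside them are CD1 mice, with 2 libraries at E16 and 2 at E18, isolated as the knockout tissue of the same age. The adult ileum libraries used for levels only are villus epithelium of B6;129 mixed mice, 2 of genotype Cdx2f/f given the oil vehicle and 2 of genotype Cdx2f/f; Villin-Cre given 1 mg of tamoxifen by injection on 5 days, all taken 3 days after the last injection. The 3 libraries labelled as deleted at E10, also used for levels only, are Cdx2f/f; Shh-Cre on the same mixed background, untreated and harvested at E16. Strain and treatment therefore differ between each of the E13-labelled and E15-labelled groups and its wild type. The labels do not say whether the 2 libraries of a group came from separate animals, so the spread between them may be technical. For each gene the p-value rests on a spread shared over the 27 embryonic libraries in 13 groups, not on that of these 4 alone. Below, E13-labelled and E15-labelled name the 2 knockout groups by their titles only.

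Cdx2 encodes a homeodomain transcription factor that specifies intestinal epithelium in the embryonic endoderm and later maintains genes of the absorptive cell. Its loss in early endoderm lets stomach and oesophageal genes appear in the intestine, and its loss in adult villi lowers brush border enzymes. Just before birth the small intestine holds short villi that express lactase, and many digestive genes of the weaned animal switch on only after birth. Setting the 2 deletion days side by side asks how the age at which Cdx2 is removed bears on the genes that change.

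Cdx2 was read in each library first. The E13-labelled libraries held 213 and 217 CPM (the usual library-size unit, here after TMM scaling) and the E15-labelled libraries 388 and 371 CPM. The wild types held 196 and 218 CPM at E16 and 199.9 and 206 CPM at E18. The E15-labelled libraries were thus the highest and did not overlap the others, and neither knockout group stood below its wild type. The log2 ratio of the E13-labelled to the E15-labelled group, given here and below with its standard error after the ± sign, was -0.82 ± 0.28 for Cdx2 (adjusted p 0.0442 by edgeR), which is smaller than the size of 1 required for a call. Counts per gene thus did not show a loss of Cdx2 in either knockout group, but they cannot show the removal of a single exon.

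The E13-labelled libraries were unlike the wild type of their stated stage in the transcripts below, and the knockout groups held different sex-linked transcripts. Total counts of the 8 libraries ran from 16685602 to 33756871. Among these 8 libraries, H19 and Cdkn1c, which are silenced around birth, were high in E16 wild type only. The maternally expressed H19 RNA held 1041 and 923 CPM in E16 wild type, 0.661 and 0.803 in the E13-labelled, 0.930 and 0.994 in the E15-labelled and 0.164 and 0.0549 in E18 wild type libraries. Cdkn1c, an imprinted cell cycle inhibitor, held 1335 and 1283, 8.02 and 6.87, 6.41 and 6.69 and 21.6 and 23.4 CPM in the same order. The E13-labelled libraries, stated to be as old as the E16 wild type, were near the E15-labelled and E18 libraries in both genes. Genes of the weaned gut went the other way: trehalase (Treh), a disaccharidase, held 0 and 0, 370.4 and 367, 105 and 104 and 1421 and 1406 CPM, and Pigr, which carries secretory antibody across the epithelium, held 19.7 and 25.3, 5339 and 5328, 7612 and 7655 and 13255 and 13314 CPM. Across 17305 genes the mean Spearman rho of the E13-labelled libraries was 0.841 against E16 wild type, 0.933 against E18 wild type and 0.957 against the E15-labelled libraries. The E15-labelled libraries had a rho of 0.942 with E18 wild type and 0.948 with adult ileum labelled Cdx2 knockout, and the E13-labelled libraries 0.935 with the latter. E18 wild type itself had a rho of 0.948 with adult ileum wild type and 0.826 with E16 wild type, and held Treh at 1421 and 1406 CPM, so it too stood close to adult gut at its stated stage. These correlations are across genes, which are not independent replicates. Mesenchyme and muscle markers took 0.167% and 0.185% of counts in E16 wild type and 0.00535% and 0.0057% in the E13-labelled libraries. In E18 wild type they took 0.00278% and 0.00263%. Pancreas and blood markers were also higher in E16 wild type (0.0894% and 0.0832%, 0.0199% and 0.0206%), while immune markers were near alike (0.03% and 0.0299% against 0.0286% and 0.0282%). Their part in the fetal transcripts was not tested. Xist, expressed from the inactive X chromosome of females, held 840.5 and 810.3 CPM in the E13-labelled libraries and 0.155 and 0.229 in the E15-labelled, while the Y-linked Ddx3y held 0 and 0 and 76.9 and 86.7 CPM. The sexes of the 2 knockout groups thus differed, and sex and deletion day cannot be told apart. Both libraries of each group behaved alike in all of these genes, so no result below can be given without them.

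**Figure D1:**
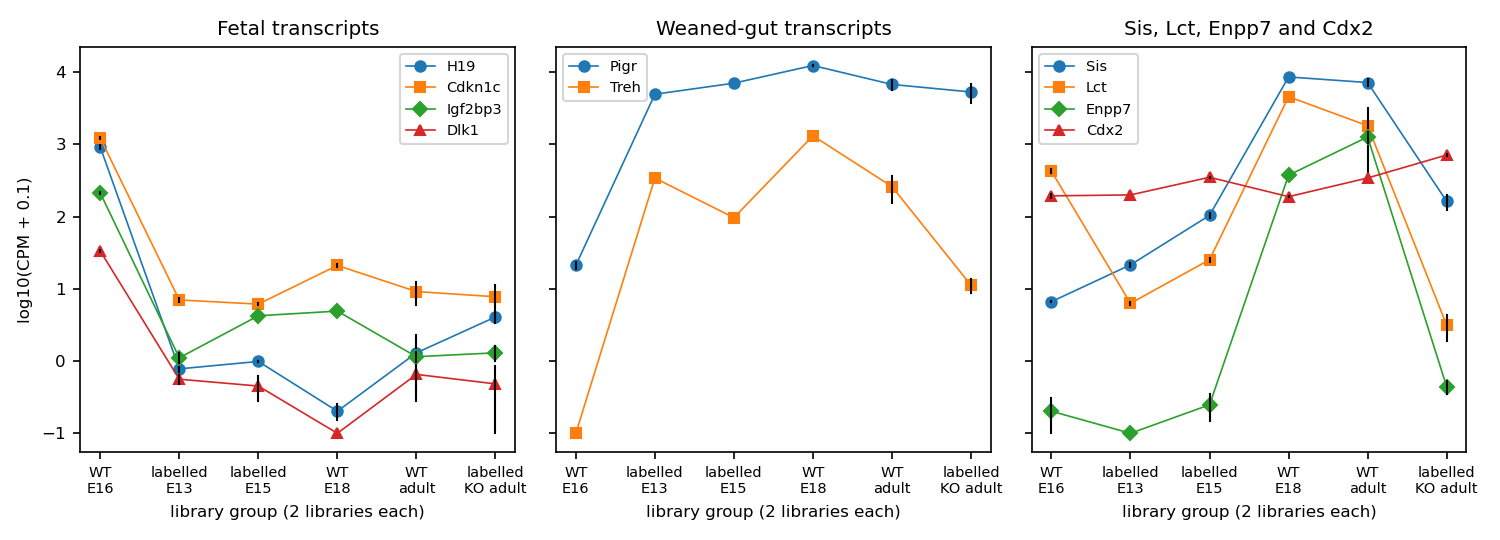
Each point is the mean log10(CPM + 0.1) of the 2 libraries of a group, with CPM scaled over all 31 RNA libraries, a black bar spans the lower and the higher library, and lines only join points of 1 gene. Fetal transcripts are high in E16 wild type and low in the 5 other groups, and Sis, Lct and Enpp7 are low in the E13-labelled and E15-labelled libraries and in adult ileum labelled knockout.

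Sis and Lct, which are known to depend on Cdx2 in villi, were lower in both knockout groups than in E18 wild type. On the scale set over all 31 libraries, sucrase-isomaltase (Sis) held 19.8 to 23 CPM in the E13-labelled and 97.1 to 112 in the E15-labelled libraries. E16 wild type held 6.40 to 6.71 CPM, below both knockout groups. E18 wild type held 8536 to 8666, adult ileum wild type 6409 to 7986 and adult ileum labelled knockout 125 to 200.3 CPM. Lactase (Lct) held 5.88 to 6.55 and 23.7 to 26.6 CPM in the E13-labelled and E15-labelled libraries, against 397 to 453 at E16, 4579 to 4595 at E18, 408 to 3221 in adult wild type and 1.79 to 4.31 in adult knockout. Both enzymes were thus lower in either embryonic knockout group than in E18 wild type, with no overlap. The adult libraries were made with another kit (TruSeq rather than SMARTer v4), so their levels are set beside the embryonic ones without a test.

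Between the knockout groups, Lct held 6.32 and 7.05 CPM in the E13-labelled and 25.7 and 28.8 in the E15-labelled libraries and was lower at E13 (log2 ratio -2.03 ± 0.33, adjusted p 0.000165 by edgeR). For Sis the values of 24.8 and 21.3 against 105 and 121 CPM did not overlap, but the gene was not called (log2 ratio -2.30 ± 1.02, adjusted p 0.14 by edgeR). The fits of only the 4 or only the 8 libraries and the replicate block called Sis lower at E13. The promoter of Sis is shown because Cdx2 is known to bind upstream of this gene. The letters TTTATNG, a form of the CDX motif searched on both strands, occur in 10.9% of the 32851 RefSeq promoters of 300 bases (250 before and 50 after each gene start, build GRCm38.p6). In Sis (chr3:72967814-72968113, minus strand) 1 match lies on the reverse strand and is in capitals.

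Sis: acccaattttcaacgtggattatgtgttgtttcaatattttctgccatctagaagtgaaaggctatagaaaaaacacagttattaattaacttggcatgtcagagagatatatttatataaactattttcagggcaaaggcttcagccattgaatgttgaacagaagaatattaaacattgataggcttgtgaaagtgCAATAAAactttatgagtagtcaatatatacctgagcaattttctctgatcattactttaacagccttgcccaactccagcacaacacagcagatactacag

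The same letters are in the promoter of Alpi and not in those of Lct, Anpep or Akp3. A match describes these letters in this window only.

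Between the E13-labelled and E15-labelled libraries, 2130 of 17239 genes tested were called, which is 12.4%. A gene was called at an edgeR adjusted p below 0.05 with a log2 fold change of at least 1 in either direction. Of these, 1250 genes were higher in the E13-labelled libraries (7.25%) and 880 lower (5.1%), and the median log2 fold change over all tested genes was 0.00. The higher genes included genes of the stomach, of antigen presentation by MHC class II and of hormone-secreting cells. The lower genes included immediate early, stem cell and cell cycle genes. Below, each list is read against the 12.4% of all tested genes that were called: the microvillus, goblet, tuft, lipid, antimicrobial, squamous, intestinal transcription factor, nuclear receptor and neural lists had shares near or below it, which is no result about their members. Leaving out an E15-labelled library left 770 or 740 genes higher, each below 1250 by more than a factor of 1.5, with 708 or 683 lower.

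**Figure D2:**
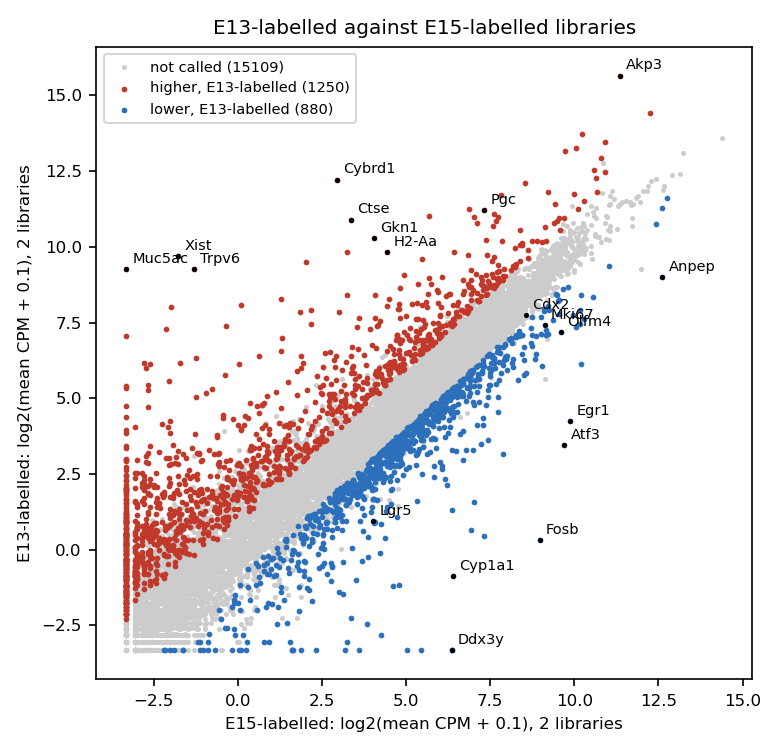
Each point is a tested gene, at log2(mean CPM + 0.1) over the 2 E15-labelled libraries (horizontal) and the 2 E13-labelled libraries (vertical). The 1250 genes called higher at E13 are red, the 880 called lower are blue and the others grey, with gastric genes, Cybrd1 and Trpv6 far above and immediate early genes far below the diagonal.

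**Figure D3:**
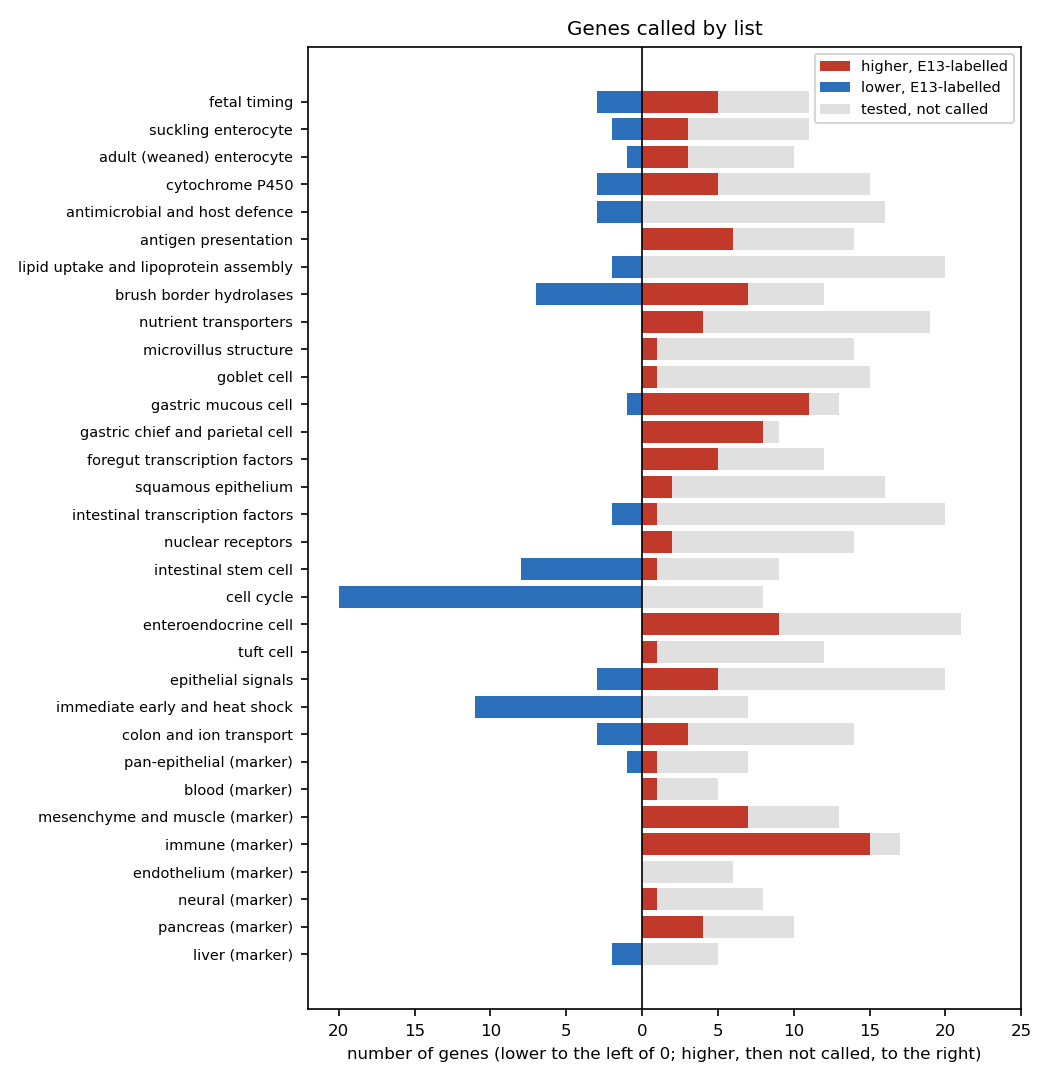
Bars count the genes of each list that were called higher (red) or lower (blue) in the E13-labelled libraries, or tested and not called (grey). Red counts reach 11 of 14 for gastric mucous and 15 of 17 for immune genes, and blue counts 20 of 28 for cell cycle and 11 of 18 for immediate early and heat shock genes.

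Genes of the gastric mucous cell were mostly higher in the E13-labelled libraries. Of 14 tested, 11 were higher and 1 lower, with a median log2 fold change of 6.42. Muc5ac, the secreted mucin of the stomach surface, held 621 and 601 CPM in the E13-labelled libraries and 0 counts in both E15-labelled libraries. It was at least 4526-fold higher, taking 3 counts per library as the floor (edgeR adjusted p 6.63e-09). In the wild types it held 0 and 0 counts at E16 and 1 and 0 at E18, so only the E13-labelled libraries had it among these 8. Muc6, the gland mucin of the stomach, held 73.3 and 69.2 CPM against 0.103 and 0.306 (log2 ratio 8.34 ± 0.78, adjusted p 3.97e-07 by edgeR). Gastrin (Gast), the antral hormone listed with these cells, held 65.1 and 61.6 against 0.103 and 0 CPM, with 2 and 0 counts in the latter. The ratio of counts summed over each group and scaled to library size was 1443-fold, 399 to 11919.6 (95% exact interval, counting error only, as for the other such ratios; edgeR adjusted p 3.59e-05). The membrane mucin Muc1 held 38.6 and 38.4 against 0 and 0.115 CPM, the latter from 0 and 3 counts, a ratio of summed counts of 583-fold, 199 to 2832 (edgeR adjusted p 1.38e-10). All 4 had groups that did not overlap.

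Further members of this list, chosen after their values were seen, were present in both knockout groups at different levels. Gkn1, a secreted protein of the gastric pit, held 1278 and 1214 CPM in the E13-labelled and 17 and 15.8 in the E15-labelled libraries (log2 ratio 6.25 ± 0.63, adjusted p 6.65e-06 by edgeR). The aspartic protease cathepsin E (Ctse) held 1919 and 1899 against 9.77 and 10.4 CPM (log2 ratio 7.56 ± 0.53, adjusted p 6.49e-09 by edgeR). The trefoil peptide Tff2 held 341 and 335 against 10.1 and 8.68 CPM (log2 ratio 5.18 ± 0.43, adjusted p 5.39e-08 by edgeR). For these 3 the E15-labelled libraries stood above E18 wild type, which held 0.0822 and 0.220 CPM of Gkn1, 0.986 and 1.21 of Ctse and 0.329 and 0.110 of Tff2. Not all gastric genes had this order. Gkn3 was the 1 member lower at E13, with 86.2 and 81.5 against 254 and 243 CPM (log2 ratio -1.57 ± 0.28, adjusted p 0.000347 by edgeR), and both groups were above E18 wild type at 2.22 and 1.98. Vsig1, a junction protein of gastric epithelium, held 61.8 and 57.2 against 30.3 and 32.2 CPM and was not called (edgeR adjusted p 0.282). Aqp5, a water channel, held 2.52 and 2.77 against 28.1 and 25.9 CPM and was not called either (edgeR adjusted p 0.0862), although the thinned counts and the fits of only the 4 or 8 libraries called it lower.

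Genes of the acid- and enzyme-secreting gastric cells showed the same direction, with 8 of 9 tested higher, 0 lower and a median log2 fold change of 4.64. With genes at the floor in a group set to their bound, and without the 1 gene at the floor in both, the median was 4.74. Atp4b, a subunit of the parietal cell proton pump, held 157 and 159 CPM in the E13-labelled and 2 and 4 counts in the E15-labelled libraries, a ratio of summed counts of 1197-fold, 549.7 to 3263 (edgeR adjusted p 1.75e-08). Its partner subunit Atp4a, chosen after its values were seen, held 365 and 364 against 62.4 and 60.7 CPM (log2 ratio 2.57 ± 0.54, adjusted p 0.00169 by edgeR). E18 wild type held 1.40 and 1.15 CPM of Atp4a. The acidic chitinase Chia1 held 135 and 131 CPM against 0 counts and was at least 985-fold higher (edgeR adjusted p 8.08e-06). Gif, which encodes intrinsic factor, held 17.1 and 17.4 against 1.24 and 0.841 CPM (log2 ratio 4.06 ± 0.60, adjusted p 0.000149 by edgeR), and the chloride transporter Slc26a9 held 13.3 and 14 against 0.724 and 0.382 (log2 ratio 4.64 ± 0.68, adjusted p 6.62e-05 by edgeR). The zymogen progastricsin (Pgc), also chosen after its values were seen, held 2325 and 2402 against 169 and 151 CPM (log2 ratio 3.88 ± 0.33, adjusted p 1.31e-07 by edgeR). Markers of the pancreas, an organ next to the stomach and duodenum, took 0.003% and 0.00312% of counts in the E13-labelled and 0.000314% and 0.000252% in the E15-labelled libraries, with 0 and 7 of 10 at 0 in both libraries, and their part in the gastric result was not tested. The gastric counts of 11 and 8 higher genes were the same under each of the 16 refits with another setting or a library left out.

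Of 12 transcription factors of the foregut tested, 5 were higher and 0 lower (median log2 fold change 1.80, or 1.73 with genes at the floor set to their bound). Nkx6-3, a factor of the gastric antrum, held 70.4 and 72.2 CPM against 1 and 1 counts, a ratio of summed counts of 1621-fold, 449 to 13395 (edgeR adjusted p 3.39e-06). Foxq1, which is needed for Muc5ac in stomach surface cells, held 396 and 419 against 121 and 124 CPM (log2 ratio 1.73 ± 0.20, adjusted p 3e-06 by edgeR). Sox21 held 8.64 and 7.32 against 0.0517 and 0.229 CPM (log2 ratio 5.66 ± 0.76, adjusted p 2.7e-05 by edgeR). Sox2, an early foregut factor chosen after its values were seen, held only 1.28 and 1.38 CPM against 0 counts and was at least 9.85-fold higher (edgeR adjusted p 0.00166), and Trp63, the factor of squamous epithelium, was at the floor in both groups. Pitx1, a homeodomain factor, was not called at 22.2 and 22.3 against 33.8 and 29.7 CPM (edgeR adjusted p 0.173), nor was Irx3 at 0.248 and 0.535 against 0.517 and 0.497 (edgeR adjusted p 0.884). Squamous epithelium genes gave 2 higher and 0 lower of 16, with a median of 0.41 as fitted and -0.71 with genes at the floor set to their bound. Of these, the protease inhibitor Serpinb5 held 56.8 and 57.1 against 10.5 and 11.4 CPM (log2 ratio 2.38 ± 0.63, adjusted p 0.0125 by edgeR), a call lost with DESeq2 and without any 1 of the 4 knockout libraries. The other call of this list was also lost without either E15-labelled library.

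Intestinal transcription factors were mostly not called, with 1 higher, 2 lower and the rest of 22 not called (median -0.33). Pdx1, a factor of the duodenum, antrum and pancreas, held 121 and 123 CPM in the E13-labelled and 26.3 and 24.9 in the E15-labelled libraries (log2 ratio 2.25 ± 0.42, adjusted p 0.000746 by edgeR). Osr2, a zinc finger factor, had 0 counts in both E13-labelled libraries and 8.99 and 9.14 CPM in the E15-labelled, at least 70.3-fold lower at E13 (edgeR adjusted p 2.57e-05), and the wild types held 44.2 and 46.6 CPM at E16 and 46.3 and 52.2 at E18. The pioneer factor Foxa1 held 33.7 and 34.6 against 76.6 and 81.5 CPM (log2 ratio -1.21 ± 0.16, adjusted p 2e-05 by edgeR). Hnf4a, a nuclear receptor that works with Cdx2 on enterocyte genes, held 556 and 553 against 886 and 868 CPM and was not called (edgeR adjusted p 0.19). Elf3, an epithelial ETS factor, held 561 and 563 against 731 and 701 and was not called (edgeR adjusted p 0.397). Cdx1, the close relative of Cdx2, held 101 and 106 against 233 and 224 CPM, without overlap, and was not called (log2 ratio -1.14 ± 0.52, adjusted p 0.133 by edgeR), although the replicate block, the thinned counts and the fits of only the 4 or 8 libraries called it lower.

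MHC class II molecules display peptides to helper T cells, and enterocytes can express them under interferon-gamma. Of 14 genes of antigen presentation tested, 6 were higher in the E13-labelled libraries and 0 lower, with a median log2 fold change of 1.68, and all 6 belong to the class II pathway. The alpha chain gene H2-Aa held 913 and 908 CPM at E13 and 21.9 and 21.4 at E15 (log2 ratio 5.39 ± 0.88, adjusted p 0.000361 by edgeR). The beta chain gene H2-Ab1 held 765 and 774 against 46.4 and 42.7 CPM (log2 ratio 4.11 ± 0.55, adjusted p 2.07e-05 by edgeR). H2-Eb1, of the second class II pair, held 405 and 401 against 29.5 and 26.1 (log2 ratio 3.86 ± 0.61, adjusted p 0.000108 by edgeR). In all 3 the E13-labelled libraries were above every other library of the 8, since E18 wild type held 205 and 205 CPM of H2-Aa, 381 and 375 of H2-Ab1 and 159 and 157 of H2-Eb1. H2-DMb1, which loads peptide onto class II, held 91.1 and 91.8 against 6.87 and 6.27 CPM (log2 ratio 3.80 ± 0.69, adjusted p 0.000476 by edgeR), and its partner H2-DMa was higher by 3.16 on the log2 scale. The invariant chain gene Cd74 was higher by 3.69. Ciita, which switches on class II genes and like H2-DMa and Cd74 was chosen after its values were seen, held 28.6 and 29.8 against 6.82 and 6.54 CPM and was not called (edgeR adjusted p 0.193) except with only the 4 or only the 8 libraries. The class I genes H2-K1 and B2m were not called: H2-K1 held 1038 and 1042 against 798 and 742 CPM (edgeR adjusted p 0.205) and B2m, the class I light chain, 880.0 and 897 against 723 and 767 (edgeR adjusted p 0.376). The class I gene H2-D1, chosen after its values were seen, held 327 and 364 against 175 and 175 CPM (log2 ratio 0.98 ± 0.23, adjusted p 0.00442 by edgeR), just under the size required, and was called higher under 5 alternatives. The count of higher genes ran from 6 to 10 over the alternatives. Immune cells also express class II. Immune markers took 0.0286% and 0.0282% of counts at E13 and 0.00644% and 0.00705% at E15, with 15 of 17 higher at E13, and 0.229% and 0.23% in E18 wild type. None of the 17 was at 0 in both libraries of a knockout group, and their part in the class II difference was not tested.

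Class II promoters share a conserved Y box, and the promoters of H2-Aa and H2-Eb1 are shown because these genes were higher together. The letters CTGATTGG were searched on both strands and are in capitals, with the match on the gene's own strand in both. They occur in 4.1% of the 32851 RefSeq promoters (GRCm38.p6). H2-Aa lies at chr17:34287774-34288073, minus strand, with the match starting 51 bases before the gene start, and H2-Eb1 at chr17:34305617-34305916, plus strand, with the match starting 62 bases before it.

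H2-Aa: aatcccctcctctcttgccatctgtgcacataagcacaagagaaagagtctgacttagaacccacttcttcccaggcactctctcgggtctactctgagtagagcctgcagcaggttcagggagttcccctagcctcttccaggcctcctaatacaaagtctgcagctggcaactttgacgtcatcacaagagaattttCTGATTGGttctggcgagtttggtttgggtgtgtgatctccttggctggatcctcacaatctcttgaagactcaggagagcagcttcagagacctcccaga

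H2-Eb1: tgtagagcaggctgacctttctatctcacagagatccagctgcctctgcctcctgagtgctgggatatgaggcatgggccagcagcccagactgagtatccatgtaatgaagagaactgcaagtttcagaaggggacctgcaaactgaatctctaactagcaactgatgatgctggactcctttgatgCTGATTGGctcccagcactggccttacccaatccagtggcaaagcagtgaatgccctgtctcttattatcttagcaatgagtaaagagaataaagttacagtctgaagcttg

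The letters do not occur in the windows of H2-DMa and H2-DMb1.

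The enzymes of the enterocyte brush border split by direction, with 7 higher and 7 lower of 19 tested and a median log2 fold change of -0.14. The higher count was 4 with DESeq2 and without the second E15-labelled library, and the lower count was 4 with DESeq2 and without either E13-labelled library. The duodenal alkaline phosphatase Akp3 was among the most abundant transcripts at E13, at 50249 and 52575 CPM against 2714 and 2537 at E15 (log2 ratio 4.29 ± 0.43, adjusted p 1.75e-05 by edgeR), while E18 wild type held 293 and 299 CPM. Tmprss15, the enteropeptidase that activates trypsin in the duodenum, held 236 and 222 against 3.62 and 3.33 CPM (log2 ratio 6.04 ± 0.71, adjusted p 2.55e-05 by edgeR), with 148 and 147 in E18 wild type. The phosphatase was thus above wild type in both knockout groups, and enteropeptidase was below it in the E15-labelled group only. Naaladl1, a peptidase, held 34.8 and 41.3 against 8.63 and 7.99 CPM (log2 ratio 2.20 ± 0.50, adjusted p 0.00313 by edgeR). The intestinal phosphatase Alpi, chosen after its values were seen, held 21321 and 22322 against 4959 and 4764 CPM (log2 ratio 2.17 ± 0.51, adjusted p 0.00491 by edgeR), and its call was lost without either E15-labelled library. The alkaline phosphatases are close relatives whose reads may be split between them, and DESeq2 called neither Akp3 nor Naaladl1. In the other direction, aminopeptidase N (Anpep) held 511 and 506 CPM at E13 and 6399.6 and 6147 at E15 (log2 ratio -3.62 ± 0.35, adjusted p 3.65e-07 by edgeR), and the E18 wild type held 12719.7 and 13119.7. The metalloprotease Mep1b held 741 and 706 against 748 and 773 CPM and was not called (edgeR adjusted p 0.997), and Enpp3 held 357 and 359 against 164 and 169.6 (edgeR adjusted p 0.15), which was called with only the 4 or only the 8 libraries.

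**Figure D4:**
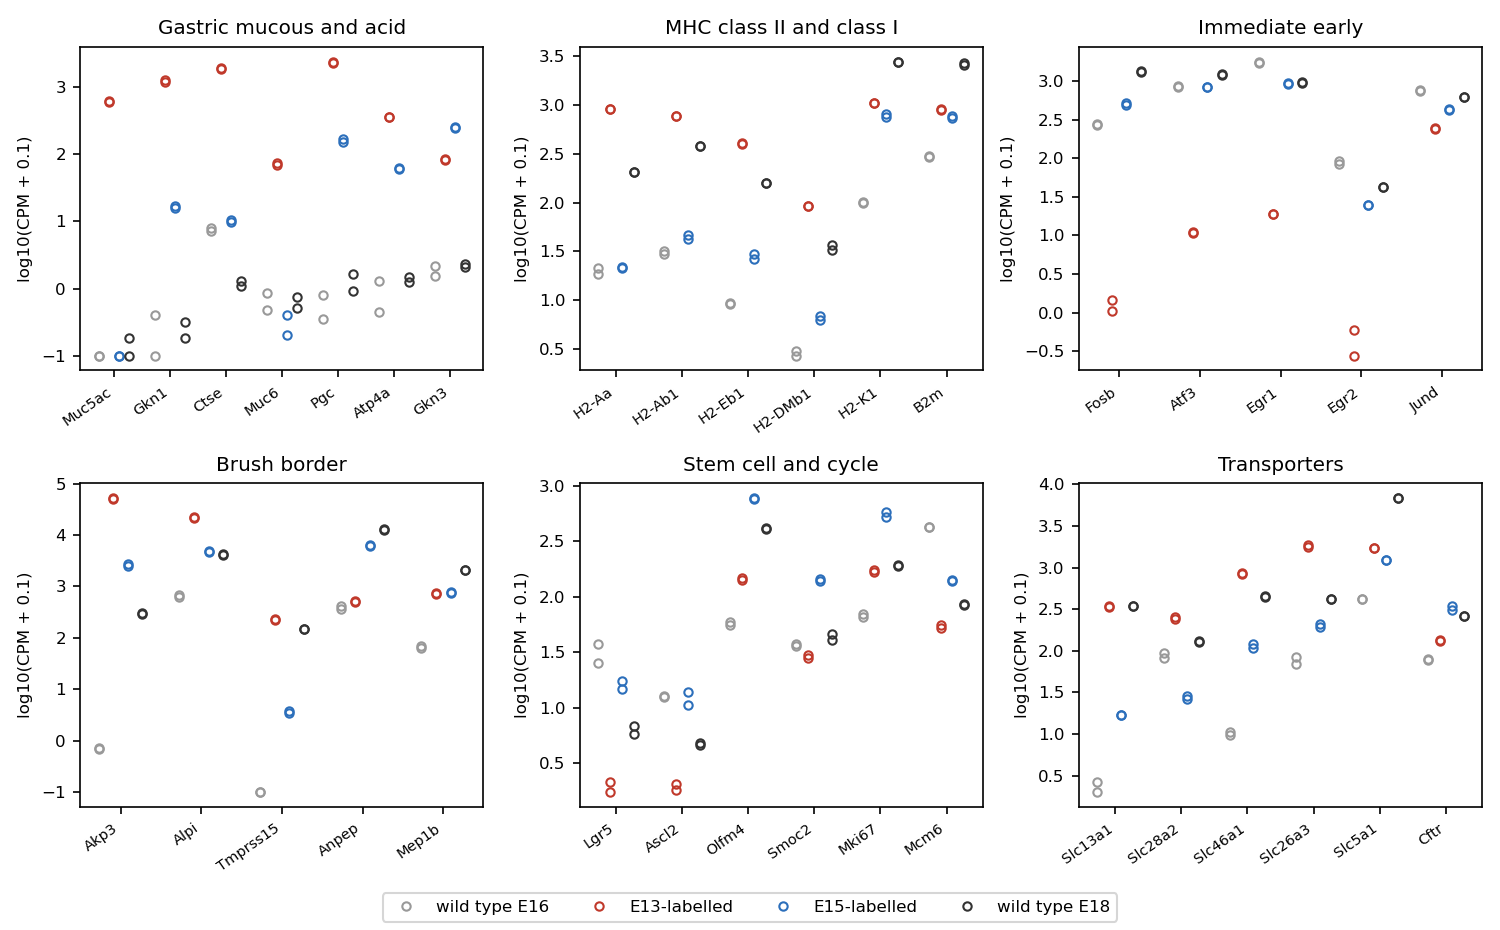
Each circle is log10(CPM + 0.1) of 1 library, with 2 libraries per group, for genes of 6 sets. The E13-labelled libraries (red) stand above all others for the gastric genes except Gkn3 and for MHC class II, and below all others for the 5 immediate early genes.

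Nutrient transporters gave 4 genes higher, 0 lower and 15 not called (median 0.01). The sulphate transporter Slc13a1 held 349 and 331 CPM against 16.7 and 16.7 (log2 ratio 4.34 ± 0.82, adjusted p 0.00185 by edgeR), a call that DESeq2 did not make. The nucleoside transporter Slc28a2 held 251 and 243 against 26.5 and 28.6 (log2 ratio 3.17 ± 0.45, adjusted p 3.87e-05 by edgeR). Slc46a1, the folate transporter of the proximal small intestine, held 847 and 860.3 against 119 and 108 (log2 ratio 2.91 ± 0.33, adjusted p 2.59e-06 by edgeR). In each of these the groups did not overlap, and the level in E18 wild type lay between them or at the upper one (347 and 342 CPM of Slc13a1, 132 and 128 of Slc28a2, 448 and 453 of Slc46a1). Slc51a, a subunit of the basolateral bile acid exporter, held 195 and 200 against 40.7 and 37 CPM (log2 ratio 2.34 ± 0.30, adjusted p 9.56e-06 by edgeR). The sodium-glucose cotransporter Slc5a1 held 1739.7 and 1737 against 1219.9 and 1242 and was not called (edgeR adjusted p 0.653), and the fatty acid transporter Slc27a4 held 680.3 and 682 against 572 and 537 (edgeR adjusted p 0.111). Microvillus structure genes were mostly not called, with 1 of 14 higher and 0 lower (median 0.38). That gene, the protocadherin Cdhr2 that links microvillus tips, held 3449.6 and 3484 against 1052 and 983 CPM (log2 ratio 1.77 ± 0.31, adjusted p 0.000345 by edgeR), while the bundling protein villin (Vil1) held 1984 and 1951 against 1633 and 1559 (edgeR adjusted p 0.434) and the motor Myo1a 1694 and 1691 against 1491 and 1419.8 (edgeR adjusted p 0.765).

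Genes of lipid uptake and lipoprotein assembly gave 0 higher and 2 lower of 22 tested (median -0.10). The fatty acid binding protein Fabp1 held 1725 and 1712 CPM at E13 and 5511 and 5534 at E15 (log2 ratio -1.68 ± 0.42, adjusted p 0.006 by edgeR), and its call was lost without either E13-labelled library. Apolipoprotein A-I (Apoa1) held 2429 and 2567 against 6526 and 5946 CPM (log2 ratio -1.32 ± 0.17, adjusted p 1.52e-05 by edgeR). Both were lower at E13 with no overlap. Apoa4 held 5309 and 5425 against 9289 and 8661 CPM and was not called (edgeR adjusted p 0.421), and Fabp2 held 3819.8 and 3759 against 6282 and 6419, where the edgeR adjusted p of 0.0338 passed but the log2 fold change of -0.74 was under the minimum.

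Lists that mark intestinal age gave calls in both directions between the knockout groups. Fetal timing genes gave 5 higher and 3 lower of 14 (median 0.33), suckling enterocyte genes 3 and 2 of 13 (median 0.48), and genes of the weaned enterocyte 3 and 1 of 11 (median 0.24). With thinned counts the fetal timing list gave 3 higher and 2 lower and the suckling list 1 and 1. Afp, a fetal plasma protein, held 36.2 and 36.3 CPM at E13 and 5.84 and 5.12 at E15 (log2 ratio 2.73 ± 0.33, adjusted p 6.53e-06 by edgeR), and Igf2, a fetal growth factor, 10 and 10.8 against 4.13 and 3.98 (log2 ratio 1.36 ± 0.29, adjusted p 0.00176 by edgeR). Hmga2, a chromatin protein of fetal cells, went the other way with 17.7 and 16.7 against 39.7 and 42.7 (log2 ratio -1.26 ± 0.21, adjusted p 0.00021 by edgeR), as did the RNA-binding protein Igf2bp3, chosen after its values were seen, with 1.28 and 0.892 against 4.50 and 4.47 (log2 ratio -2.03 ± 0.17, adjusted p 7e-08 by edgeR). The knockout groups were both below E16 wild type for each of these 4 genes, which held 102 and 88.3, 901 and 851, 52 and 46.8 and 236 and 218 CPM there. Igf2bp2 held 58.4 and 58.1 against 67 and 68.6 CPM and was not called (edgeR adjusted p 0.437), nor was Cdkn1c (edgeR adjusted p 0.553). Among the suckling genes the lysosomal protease Ctsl held 67.8 and 65 against 29.7 and 27.4 (log2 ratio 1.22 ± 0.12, adjusted p 5.35e-07 by edgeR), the neonatal antibody receptor Fcgrt 142 and 146 against 79.6 and 78.3 (not called, edgeR adjusted p 0.445) and the lysosomal galactosidase Glb1 108 and 105 against 91.7 and 84.9 (not called, edgeR adjusted p 0.338). Among the weaned genes, the proton channel Otop3 held 169 and 173 against 19.5 and 16.4 CPM (log2 ratio 3.25 ± 0.45, adjusted p 5.16e-05 by edgeR) and Treh 370.4 and 367 against 105 and 104 (log2 ratio 1.82 ± 0.12, adjusted p 2.93e-06 by edgeR). Maltase-glucoamylase (Mgam) held 2023 and 1947 against 744 and 746 (log2 ratio 1.41 ± 0.49, adjusted p 0.0439 by edgeR) and Lypd8, which keeps flagellated bacteria off the epithelium, 3126 and 3071 against 7016 and 6854 (log2 ratio -1.16 ± 0.40, adjusted p 0.0442 by edgeR). The calls on Mgam and Lypd8 were lost with DESeq2 and without any 1 of the 8 libraries. Pigr was not called (edgeR adjusted p 0.698).

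Cytochrome P450 genes gave 5 higher and 3 lower of 18 tested (median 0.26), and only 2 were higher with all 31 libraries. Cyp1a1, the classic target of the aryl hydrocarbon receptor, was near 0 at E13, at 0.455 and 0.446 CPM, and held 84.7 and 82.2 at E15 (log2 ratio -7.52 ± 1.17, adjusted p 0.000243 by edgeR). Cyp2d34 held 9.22 and 10.2 against 114 and 108 (log2 ratio -3.51 ± 0.61, adjusted p 0.00124 by edgeR) and stood at 0.164 and 0.0549 CPM in E18 wild type. Both were lower at E13 with no overlap, and DESeq2 did not call Cyp2d34. Cyp3a11, a drug-metabolising enzyme induced through the pregnane X receptor, held 9052 and 9186 against 797 and 879 (log2 ratio 3.44 ± 1.05, adjusted p 0.0377 by edgeR), but lost its call with DESeq2, with all 31 libraries and without any 1 of the 4 knockout or 2 E18 libraries. Cyp2c55 held 447 and 429 against 38.8 and 43.2 (log2 ratio 3.42 ± 0.49, adjusted p 8.86e-05 by edgeR). Cyp2c65 held 2657 and 2582 against 929 and 1019 and was not called (edgeR adjusted p 0.0541) except under 6 alternatives, and Cyp2d26 held 988 and 1016 against 1012 and 969 (edgeR adjusted p 1). These families have close paralogs, between which reads may be split. Nuclear receptors, many of which control such enzymes, gave 2 higher and 0 lower of 14 (median 0.38). The vitamin D receptor Vdr held 808 and 818 against 192 and 196 CPM (log2 ratio 2.06 ± 0.41, adjusted p 0.00107 by edgeR), with 689 and 698 in E18 wild type. The lipid-sensing receptor Pparg held 133 and 139 against 47.3 and 52.8 (log2 ratio 1.44 ± 0.37, adjusted p 0.00742 by edgeR), a call lost without either E15-labelled library. The pregnane X receptor Nr1i2 held 254 and 256 against 188 and 175 and was not called (edgeR adjusted p 0.395), nor was the orphan receptor Esrra at 229.9 and 243 against 246 and 224 (edgeR adjusted p 1).

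Hormone-producing enteroendocrine cells had 9 genes higher, 0 lower and 12 not called of 21 tested (median 1.63). Somatostatin (Sst) held 80.1 and 88.7 CPM at E13 and 7.96 and 6.96 at E15 (log2 ratio 3.50 ± 0.96, adjusted p 0.0131 by edgeR), and the incretin Gip 54.6 and 58.3 against 10.1 and 10.4 (log2 ratio 2.46 ± 0.50, adjusted p 0.00158 by edgeR). Cholecystokinin (Cck) held 35.3 and 35.2 against 7.44 and 6.92 (log2 ratio 2.30 ± 0.64, adjusted p 0.0138 by edgeR), and Chga, a protein of hormone granules, 259 and 263 against 67.1 and 64.7 (log2 ratio 1.99 ± 0.58, adjusted p 0.0189 by edgeR). The groups did not overlap in any of the 4, and E18 wild type was above the E15-labelled group in each (19.3 and 20.8, 69.3 and 61.2, 94.4 and 101 and 182 and 184 CPM). The serotonin enzyme Tph1 held 36 and 32.6 against 8.01 and 7.42 and was not called (edgeR adjusted p 0.0797), nor was secretin (Sct) at 18.3 and 18.6 against 6.77 and 6.38 (edgeR adjusted p 0.237). Each was called under 3 alternatives, among them the fits of only the 4 or only the 8 libraries. In bulk RNA, fewer cells of a type and less RNA per cell cannot be told apart. Without the second E15-labelled library the count of higher genes was 2, the lowest over the alternatives. The calls on Chga and Cck were lost without any 1 of the 4 knockout libraries, and that on Sst with DESeq2 and without 3 of the 4.

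Goblet cell genes, which build the intestinal mucus, gave 1 higher and 0 lower of 15 (median -0.22). That gene, the membrane mucin Muc4, held 229 and 232 CPM against 90.3 and 88.8 (log2 ratio 1.36 ± 0.32, adjusted p 0.00547 by edgeR) and lost its call without either E15-labelled library. Fcgbp, a mucus protein, held 4874 and 4880.3 against 5826 and 5211 (edgeR adjusted p 0.864), and the membrane mucin Muc13 2906 and 2869 against 3867 and 4076 (edgeR adjusted p 0.689). Neither was called. Tuft cell genes gave 1 higher and 0 lower of 12 (median 0.77), with the cytoskeletal protein Avil at 39.6 and 42 against 16.2 and 14.1 CPM and the taste channel Trpm5 at 15 and 15.9 against 19.5 and 15.3, neither called (edgeR adjusted p 0.376 and 0.968), although the fits of only the 4 or 8 libraries called Avil. Antimicrobial genes gave 0 higher and 3 lower of 19 (median -1.51, or -0.90 with genes at the floor set to their bound). Ang4, a bactericidal ribonuclease of Paneth cells, held 4.96 and 4.95 against 67.9 and 73.3 (log2 ratio -3.83 ± 1.00, adjusted p 0.00927 by edgeR), the lysozyme Lyz1 324 and 320.3 against 1509 and 1499 (log2 ratio -2.22 ± 0.74, adjusted p 0.0361 by edgeR) and Retnlb 0.785 and 1.12 against 9.82 and 10.9 (log2 ratio -3.44 ± 0.86, adjusted p 0.0104 by edgeR). All 3 calls were lost without either E13-labelled library, those on Lyz1 and Retnlb also with DESeq2, and that on Lyz1 also without either E15-labelled library. The count of lower genes ran from 0 without either E13-labelled library to 9 under other alternatives. The lectin Reg3b held 631 and 603 against 4021 and 4062 and Reg1 held 7168 and 6932 against 1818 and 1886, without overlap and not called (edgeR adjusted p 0.167 and 0.0927), although both were called with only the 4 or only the 8 libraries and with the replicate block, and Reg1 also with thinned counts.

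Genes of crypt stem cells, which depend on Wnt signals, were lower at E13 in 8 of 17 cases and higher in 1 (median log2 fold change -1.06). Lgr5, the R-spondin receptor that marks these cells, held 2.03 and 1.65 CPM in the E13-labelled and 14.7 and 17.5 in the E15-labelled libraries (log2 ratio -3.13 ± 0.36, adjusted p 3.33e-06 by edgeR). Olfm4, a secreted stem cell marker, held 147 and 143 against 761 and 780.1 (log2 ratio -2.41 ± 0.32, adjusted p 1.51e-05 by edgeR), and the Wnt-responsive factor Ascl2 1.74 and 1.96 against 13.9 and 10.6 (log2 ratio -2.72 ± 0.39, adjusted p 3.97e-05 by edgeR). The receptor Tnfrsf19 held 1.86 and 1.65 against 16.5 and 16.4 (log2 ratio -3.23 ± 0.35, adjusted p 1.79e-06 by edgeR). All 4 had groups that did not overlap, and the E15-labelled group was above E18 wild type in each (5.75 and 6.81, 408 and 420.2, 4.77 and 4.50 and 1.56 and 1.65 CPM). The 1 member higher at E13 was the adhesion receptor Cd44, at 122 and 122 against 28.3 and 30.5 (log2 ratio 2.05 ± 0.58, adjusted p 0.0158 by edgeR), a call lost without any 1 of the 4 knockout libraries. Rnf43, a Wnt target that removes Wnt receptors, held 190.2 and 189.5 against 96.2 and 94.7 and had a log2 fold change of 0.99, just under the minimum, so that it was called under 7 alternatives. Sox9 held 76.8 and 82.9 against 64.8 and 65.8 and was not called (edgeR adjusted p 0.232).

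Cell cycle genes were lower at E13 in 20 of 28 cases and higher in 0, with a median log2 fold change of -1.18. The proliferation antigen Mki67 held 174 and 167 CPM against 527 and 583 (log2 ratio -1.70 ± 0.20, adjusted p 3.19e-06 by edgeR), and cyclin E1 (Ccne1) 4.17 and 4.42 against 13.8 and 14.6 (log2 ratio -1.73 ± 0.20, adjusted p 3.3e-06 by edgeR). The mitotic kinase Bub1 held 10.5 and 9.77 against 31.1 and 32.2 (log2 ratio -1.65 ± 0.24, adjusted p 5.39e-05 by edgeR), and the mitotic transcription factor Foxm1 13 and 15.6 against 40.8 and 42.2 (log2 ratio -1.54 ± 0.43, adjusted p 0.0135 by edgeR), whose call was lost without any 1 of the 4 knockout libraries. No pair of groups overlapped. Topoisomerase Top2a held 111 and 108 against 201 and 214 and the ribonucleotide reductase subunit Rrm2 62 and 61.6 against 69.5 and 67.9, and neither was called. For Top2a the edgeR adjusted p was 6.4e-05 with a log2 fold change of -0.92, and for Rrm2 it was 0.629. The fewest genes called lower under any alternative was 15. The isolation differed between the groups as given above, so isolation and deletion day cannot be told apart here.

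Among signals between epithelial and neighbouring cells, 5 genes were higher and 3 lower of 23 (median -0.31). The higher count was 2 without the first E13-labelled or either E15-labelled library. Wnt4, a secreted ligand, held 26 and 25.3 CPM against 2.53 and 2.10 (log2 ratio 3.47 ± 0.53, adjusted p 8.22e-05 by edgeR). Shh, a hedgehog ligand of gut epithelium chosen after its values were seen, held 5.21 and 5.40 against 0.155 and 0.229 (log2 ratio 4.71 ± 0.47, adjusted p 6.16e-07 by edgeR). Notch1, the receptor that keeps progenitors out of the secretory lineages, held 28.2 and 31.9 against 111 and 107 (log2 ratio -1.86 ± 0.23, adjusted p 6.26e-06 by edgeR), and its ligand Dll1 31.9 and 33.9 against 70.7 and 68.5 (log2 ratio -1.08 ± 0.27, adjusted p 0.00742 by edgeR). Wnt4 and Shh were thus higher and Notch1 and Dll1 lower, although Dll1 lost its call under 5 alternatives. These genes do not stand for their families, since 15 of the 23 were not called. Id1 and Id3, targets of BMP signalling, were not called, at 178 and 189 against 171 and 155 CPM and 123 and 127 against 189 and 169.9 (edgeR adjusted p 0.743 and 0.328).

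Immediate early genes are transcribed within minutes of growth factor signals or stress. Of 18 immediate early and heat shock genes, 11 were lower at E13 and 0 higher (median log2 fold change -2.36), with the same counts under each of the 16 refits. Fosb held 0.951 and 1.34 CPM against 511 and 490.2 (log2 ratio -8.77 ± 0.46, adjusted p 1.64e-10 by edgeR), and Atf3 10.8 and 11 against 842 and 825 (log2 ratio -6.26 ± 0.68, adjusted p 1.84e-06 by edgeR). Egr1 held 18.8 and 19 against 949 and 919.5 (log2 ratio -5.63 ± 0.29, adjusted p 1.38e-10 by edgeR), and Egr2 0.496 and 0.178 against 24.6 and 24.5 (log2 ratio -6.14 ± 0.71, adjusted p 3.38e-06 by edgeR). The E13-labelled libraries stood apart from the 6 other embryonic libraries of this comparison, since Egr1 held 1775 and 1692 CPM in E16 wild type and 938 and 979 in E18 wild type. Among the adult ileum libraries, Egr1 held 5.71 to 12 CPM in wild type and 34.6 to 40 in those labelled knockout, on the scale over all 31. Jund held 237 and 245 against 439 and 425 CPM and the chaperone Dnajb1 60.8 and 58.4 against 106 and 107, both under the fold change minimum (log2 fold change -0.84 and -0.84). The heat shock gene Hspa1b held 7.48 and 7.49 against 10.8 and 11.1 and was not called (edgeR adjusted p 0.523). As for the cell cycle genes, isolation and deletion day cannot be told apart for this list.

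Ion transport and colonic genes gave 3 higher and 3 lower of 17 (median 0.00, or 0.31 with genes at the floor set to their bound). The chloride-bicarbonate exchanger Slc26a3 held 1882 and 1782 CPM against 195 and 209 (log2 ratio 3.18 ± 0.21, adjusted p 4.3e-08 by edgeR), and Slc26a6 1638 and 1623 against 576 and 543 (log2 ratio 1.54 ± 0.31, adjusted p 0.00106 by edgeR). The water channel Aqp8 held 5.17 and 5.17 against 57.8 and 55.7 (log2 ratio -3.45 ± 0.74, adjusted p 0.0034 by edgeR), and the chloride channel Cftr 136 and 131 against 307 and 342 (log2 ratio -1.28 ± 0.21, adjusted p 0.000163 by edgeR). Both anion exchangers were thus higher at E13 and both channels lower, with no overlap. Carbonic anhydrase Car2 held 3481 and 3554 against 1794 and 1828 and was not called (edgeR adjusted p 0.0872), nor was the guanylin receptor Gucy2c at 454 and 439 against 455 and 458 (edgeR adjusted p 1).

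Outside the lists, the called genes with the largest fold changes and at least 50 CPM in each library of a group were, besides Xist and Ddx3y, the following 10. Trpv6, the calcium channel of the duodenum, held 618 and 610.1 CPM against 0.413 and 0.191 (log2 ratio 11.03 ± 0.67, adjusted p 1.06e-09 by edgeR). Pla2g1b, a secreted phospholipase of pancreas and stomach, held 253 and 262 against 0.155 and 0.153 (log2 ratio 10.66 ± 0.72, adjusted p 4.07e-09 by edgeR). Cybrd1, the ferric reductase of the duodenal brush border, held 4771 and 4754 against 7.96 and 7.07 (log2 ratio 9.31 ± 0.63, adjusted p 3.99e-09 by edgeR). These 3 were near 0 or low in all of the E15-labelled and wild type libraries, where Cybrd1 held at most 17.6 CPM. The collagen receptor Ddr2 held 69.9 and 71.1 CPM against 1 and 2 counts, a ratio of summed counts of 1069.6-fold, 366 to 5189, and the uncharacterised 2310042E22Rik held 166 and 169 against 0.879 and 0.497 (log2 ratio 7.94 ± 0.67, adjusted p 6.45e-07 by edgeR). On the lower side, the Y-linked Eif2s3y had 0 counts against 77.6 and 85.2 CPM. Nr4a1, an early response receptor, held 0.951 and 1.61 against 168 and 151 (log2 ratio -6.96 ± 0.66, adjusted p 3.32e-07 by edgeR), and Thbs1, which encodes the matrix protein thrombospondin, 1.57 and 1.38 against 121 and 121 (log2 ratio -6.35 ± 0.47, adjusted p 1.16e-08 by edgeR). Cyr61, a target of serum and Yap, held 2.31 and 3.39 against 131 and 127 (log2 ratio -5.50 ± 0.52, adjusted p 2.65e-07 by edgeR). Pck1, the entry enzyme of glucose synthesis, held 2.19 and 2.63 against 86.1 and 77.6 (log2 ratio -5.08 ± 0.62, adjusted p 1.24e-05 by edgeR) and was highest in E18 wild type at 775 and 778 CPM.

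Markers of other cell types differed between the groups. Pan-epithelial genes gave 1 higher and 1 lower of 8 (median -0.06). Keratin 20 (Krt20) held 1789 and 1739 CPM against 679 and 677 and claudin 3 (Cldn3) 194 and 213 against 458 and 393, and the call on Cldn3 was lost under 4 alternatives. Keratins 8 and 19 were not called (Krt8 4625 and 4658 against 5154 and 4748, Krt19 4033 and 4277 against 4927 and 4474). Immune markers were higher in 15 of 17 (median 2.60), with 8 without either E15-labelled library. The T cell gene Cd3g held 19.1 and 16.9 against 2.95 and 2.68 CPM and the myeloid lysozyme Lyz2 17.8 and 16.4 against 0.775 and 1.03. Mesenchyme and muscle markers were higher in 7 of 13 and took 0.00535% and 0.0057% of counts at E13 against 0.000677% and 0.000749% at E15, where 5 of the 13 were at 0 in both libraries. Decorin (Dcn), a matrix protein of fibroblasts, held 39.9 and 40.6 CPM against 0 counts and was at least 299-fold higher. Pancreas markers were higher in 4 of 10, blood in 1 of 5 and neural in 1 of 8. Without any 1 of the 4 knockout libraries only 1 pancreas marker was called, and the neural call was lost without the second E13-labelled or either E15-labelled library. Endothelial markers gave 0 calls higher of 6 and liver markers 2 lower of 7, namely the transferrin gene Trf at 9.13 and 9.72 against 88.4 and 89 CPM and transthyretin (Ttr) at 151 and 155 against 594 and 537, both of which other epithelia can express. The pan-epithelial list took 1.03% and 1.04% of counts at E13 and 1.2% and 1.13% at E15. Among the other lists the largest share in a knockout library was that of the liver list in an E15-labelled library, at 0.0548%, and their part in the other differences was not tested.

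Each knockout group was then set against the wild type of its stated age. Against E16 wild type the E13-labelled libraries had 3225 genes higher (18.7%) and 3582 lower (20.8%), together 39.5% of those tested, and against E18 wild type the E15-labelled libraries had 1343 higher (7.79%) and 1672 lower (9.7%), together 17.5%. Without the first E15-labelled library the latter counts were 1186 higher and 1112 lower, and without the second 1112 and 1071, so that the balance of the directions turned. The difference between these differences was itself tested in the same edgeR fit, and 6536 genes (37.9%) were called, 3419 higher for the E13-labelled libraries (19.8%) and 3117 lower (18.1%). The wild types at E16 and E18 differed in 3802 genes higher (22.1%) and 3458 lower (20.1%) at E16, together 42.1%, so more genes were called between the wild types than between the knockout groups. The E13-labelled libraries had the low fetal and high weaned transcripts given above, which cannot be told apart from an effect of deletion in a comparison with E16 wild type. In that comparison mesenchyme and muscle markers gave 0 higher and 13 lower of 13, pancreas 1 and 7 of 10 and blood 0 and 4 of 5. Immune markers gave 8 higher and 4 lower of 17. The part of these cells in the list counts was not tested. For the difference between these comparisons, brush border hydrolases gave 15 higher and 0 lower of 19, microvillus genes 13 and 0 of 14, and antigen presentation 14 and 0 of 14, while cell cycle genes gave 0 higher and 27 lower of 28, and fetal timing genes 1 and 10 of 14. The medians of these differences were 5.32, 2.82, 5.58, -2.99 and -6.48 on the log2 scale, beside 0.00 over all tested genes. In the same order, the list medians were -0.14, 0.38, 1.68, -1.18 and 0.33 between the knockout groups. Between the E16 and E18 wild types they were -4.985, -2.72, -3.62, 1.84 and 6.30, larger in size in each list. Immune markers gave 11 higher and 0 lower of 17 for the difference between the comparisons, and their part was not tested.

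Gastric mucous genes were mostly higher in both knockout groups than in the wild type of the stated age. Of 14 tested, 14 were higher at E13 and 0 lower, and 9 were higher at E15 and 1 lower. Gkn1 stood at 0.302 and 0 CPM in E16 wild type, and its log2 fold change was 12.91 (SE 0.95) for the E13-labelled and 6.60 (SE 1.00) for the E15-labelled libraries, a difference of 6.31 (edgeR adjusted p 0.0888) that was not called. With 6 and 0 counts at E16 and 1 and 4 at E18 in the wild types, these fitted values depend on the prior count. Ctse gave 7.99 and 3.18 in the same order, a difference of 4.81 (edgeR adjusted p 0.000141). For Gkn3 they were 5.57 and 6.90, a difference of -1.33 (edgeR adjusted p 0.0389). The gastric list as a whole held 4 genes with a called difference upward and 1 downward, a share near the 37.9% of all tested genes and so no result about its members. Lct gave -6.08 and -7.49, and the difference of 1.41 was called (edgeR adjusted p 0.0128). Sis gave 1.72 against an E16 wild type with 7.15 and 6.82 CPM and -6.35 against an E18 wild type with 9169 and 9281, a difference of 8.07 (edgeR adjusted p 0.000898).

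**Figure D5:**
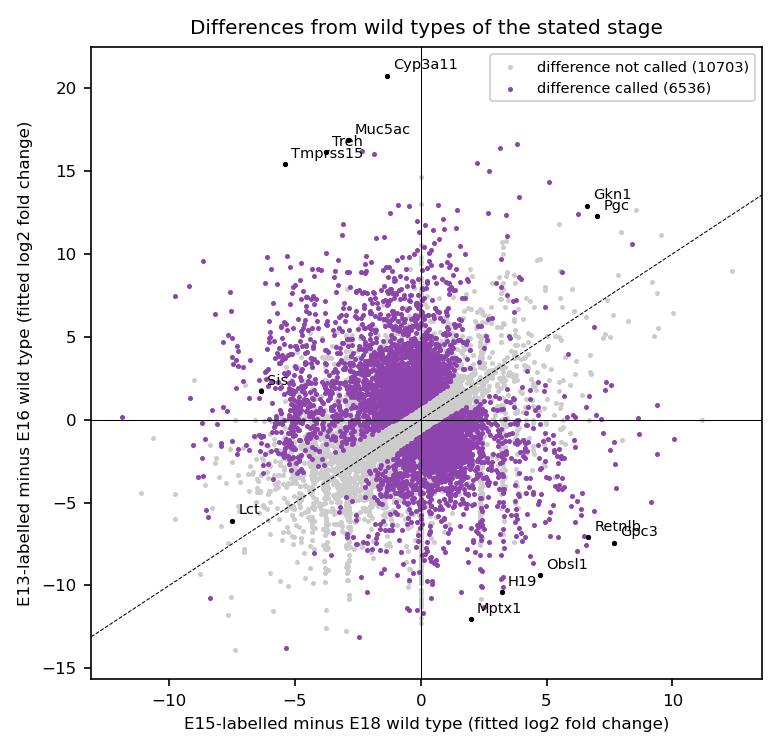
Each point is a tested gene, at the fitted log2 fold change of the E15-labelled libraries against E18 wild type (horizontal) and of the E13-labelled libraries against E16 wild type (vertical), with the dashed line where both are equal. The 6536 genes whose difference was called are purple. Gkn1 and Pgc lie at the upper right, and Lct at the lower left.

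The overlap of the 2 comparisons with wild type of the stated age, which share no library, held genes of both signs. Of the 1343 genes higher at E15 against E18 wild type, 326 (24.3%) were also higher at E13 against E16 wild type, beside 18.7% of all tested genes, and 495 (36.9%) were lower there, beside 20.8%. Of the 1672 genes lower at E15 (1112 or 1071 without an E15-labelled library), 465 (27.8%) were lower at E13, beside 20.8% of all tested genes, and 464 (27.8%) were higher, beside 18.7%. As shares of the genes called at E13, the 326 were 10.1% and the 464 were 14.4% of those higher, and the 495 were 13.8% and the 465 were 13% of those lower. The comparison between the knockout groups and that between the wild types share no library either. Of the 1250 genes higher in the E13-labelled than in the E15-labelled libraries, 511 (40.9%) were higher in E16 than in E18 wild type, beside 22.1% of all tested genes, and 313 (25%) lower, beside 20.1%. Of the 880 lower genes, 411 (46.7%) were higher in E16 wild type and 164 (18.6%) lower, beside the same shares of all tested genes. These overlaps were 13.4%, 9.05%, 10.8% and 4.74% of the genes called between the wild types in that direction.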

How the data were processed

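RNA-seq counts per gene were taken as the authors deposited them, as whole-number counts in 1 table. STAR 2.5.3a, HTSeq and the build mm9 are named, with no role, per the submitters' processing notes. Embryonic libraries were SMARTer v4 and adult ones TruSeq, per the labels' protocols. The table holds 24015 symbols, of which 22709 matched the name table, and 2 columns of per-sample values were not used. Values of the 4 adult columns were out of register with their symbols below blank cells and were closed up: over 1675 genes their Spearman rho with E18 wild type libraries went from 0.28–0.296 to 0.929–0.962. The test used the 27 embryonic libraries in 13 groups (edgeR 4.0.16, R 4.3.3, TMM scaling, filterByExpr with a minimum count of 10, quasi-likelihood test, 14 residual degrees of freedom), with 17239 genes tested and Benjamini-Hochberg adjusted p. The standard error is the size of the log2 ratio over the root of edgeR's F. The fit assumes that all 13 groups vary alike, whereas the chi-square per degree of freedom between replicates ran from 1.499 (E18 wild type) to 122.569 (deleted at E10), with 2.399 at E13 and 4.797 at E15. No replicates were identical. Alternatives used DESeq2 1.42.0, other scalings, filters and library sets, thinned counts, a replicate block, and each of 8 libraries left out. In data simulated for the comparison of E13 with E15, 26 of 100 genes changed 2-fold and 96 of 100 changed 4-fold were recovered, with 5 false calls. The simulation gave all groups the same dispersion of 0.05, and recovery was counted without the fold change minimum. The comparison, gene lists and tests were chosen with earlier results of these data known. Up to 4 called genes per list with the largest fold change and at least 10 CPM in each library of a group were named by rule, with the 2 most abundant genes not called, and 6 genes per direction outside the lists at 50 CPM. The other genes, among them Cdx1, Sox21, Osr2, Retnlb and those of the label checks, were chosen after their values were seen.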

Additional observations from a re-analysis of the deposited data

Results flagged for a closer look

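The differences of the E13-labelled libraries from E16 wild type and of the E15-labelled from E18 wild type themselves differed in 3419 genes upward and 3117 downward, by the edgeR test of that difference. Among well expressed genes, the largest upward differences on the log2 scale were 22.08 for Cyp3a11, 20.84 for Tmprss15, 19.88 for trehalase (Treh), 19.74 for Muc5ac and 18.53 for Cyp3a25. The largest downward differences were -15.09 for the fetal glypican Gpc3, -14.1 for Obsl1, -14.02 for Mptx1, -13.72 for Retnlb and -13.6 for H19. Cyp3a11 held 0 and 0 CPM in E16 wild type, 9052 and 9186 in the E13-labelled, 797 and 879 in the E15-labelled and 2051 and 2154 in E18 wild type libraries. Gpc3 held 400.3 and 423, 2.56 and 2.23, 8.01 and 7.49 and 0 and 0.0549 CPM in the same order. The call on the Muc5ac difference was lost with thinned counts and without the first E18 wild type library (14.8 to 16.88), that on Cyp3a25 with DESeq2 and that on Obsl1 with thinned counts (-8.72). Each of these 10 genes had a group at or near 0 counts, so the size of the fitted value depends on the prior count and is no bound.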

How the results depend on the processing

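Of the 234 single results followed under the alternatives, none changed direction, and of the values at alternatives 3513 kept their side of the threshold, 112 lost a call and 92 gained one. Between the knockout groups, 2043 genes were higher with only the 4 libraries and 2134 with only the 8 libraries of the 4 groups. Leaving out 1 library gave 740 to 1229 genes higher and 636 to 866 lower. Without the fold change minimum 1965 genes were lower. Against E18 wild type, 2850 genes were higher at E15 without the fold change minimum, and leaving out 1 library gave 1074 to 1340 higher and 1071 to 1639 lower, with 1112 or 1071 without an E15-labelled library. Leaving out 1 library gave 2835 to 3147 higher and 2852 to 3555 lower at E13 against E16 wild type, 2899 to 3110 and 2842 to 2973 for the difference of these comparisons, and 3165 to 3772 and 3028 to 3363 between the wild types. The cause was not tested. Where a library was left out of a pair, the lone sample is assumed to vary like the other groups.

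Replicate numbers do not pair the samples: the correlation of deviations of same-numbered libraries was -0.021 to 0.008. The replicate block gave 1280 genes higher and 909 lower between the knockout groups.

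A missing call does not show that a gene was alike in both groups. Of simulated 2-fold changes between E13 and E15, 26 of 100 were recovered, and of 4-fold changes 96 of 100. Recovery asked only for an edgeR adjusted p below 0.05 and the right direction, without the fold change minimum.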

Other observations

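Several genes with known regional expression along the gut, chosen after their values were seen, are given here as levels on the scale over all 31 libraries. Fabp6, the ileal bile acid binding protein, held 3733 to 3916 CPM in adult ileum wild type, 0.249 to 0.346 in the E13-labelled and 0.141 to 0.287 in the E15-labelled libraries. Slc10a2, the ileal bile acid transporter, held 182 to 183, 3.23 to 3.76 and 4.30 to 5.16 CPM in the same order. The duodenal reductase Cybrd1 held 4418 to 4432 CPM in the E13-labelled and 6.54 to 7.35 in the E15-labelled libraries.

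Gastric genes were also present in the 3 small intestine libraries labelled as deleted at E10. Gkn1 held 1095 to 4414 CPM there, Ctse 687 to 1513, Tff2 694 to 1997 and Muc5ac 10.7 to 20.5, on the same scale. The fetal transcript H19 held 1041 to 1257 CPM in these libraries, against 0.614 to 0.746 in the E13-labelled ones.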
